A study of Homo sapiens with 12 samples.

Results

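ZNF131, the gene of a zinc-finger transcription factor that has been described as a target of TFAP2β, was followed through all 12 libraries of an RNA-seq study of KYSE150, an established human cell line of oesophageal squamous carcinoma. It was taken as the row of the count table with that symbol, 1 gene of 24302 features, and it was among the 14792 features with enough counts to test. The cells carried 1 of 4 constructs, with 3 libraries for each: GFP alone, GFP-TFAP2β with the unaltered protein (WT here), GFP-TFAP2β-Mut_IDR3, or GFP-TFAP2β-ΔIDR3 (dIDR3 here; Δ commonly marks a deletion). The series calls the last 2 deficient in phase separation and asks which genes depend on that property. All 4 groups share the parental line and the GFP tag, and all were grown in the same medium. The labels do not say whether the constructs were stable or transient, whether a group was 1 clone, or whether replicates were separate cultures. The p-values below therefore measure only the spread between these libraries, which may be technical.

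TFAP2β, the product of TFAP2B, belongs to the AP-2 family of transcription factors, which bind GC-rich elements and control genes of epithelial and neural crest development. An IDR is an intrinsically disordered region, a stretch of protein without a fixed fold, and such stretches can drive the condensation of proteins into droplets. ZNF131, also named ZBTB35, carries a BTB/POZ domain, through which such proteins pair, and C2H2 zinc fingers, which bind DNA. It has been described as a partner of Kaiso (ZBTB33), as a repressor of oestrogen receptor signalling, and as an activator of HAUS5, a subunit of the HAUS (augmin) complex that branches microtubules in the mitotic spindle.

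In GENCODE release 29 (GRCh38), ZNF131 (ENSG00000172262) lies on the plus strand of chromosome 5 from 43065176 to 43192021, with 20 annotated transcripts, 9 of them protein coding. Its longest transcript has 3340 bases with a GC content of 42.5%. 2 other annotated genes overlap it and neither had a row in the table. The strand setting of the counting is not given in the sources used here, so reads from the overlapping genes could not be told apart from its own.

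Since the study concerns a transcription factor, the promoter of ZNF131 is shown first. RefSeq on GRCh38.p14 gives the gene a start at position 43121461 of chromosome 5, inside the GENCODE gene and upstream of the example coding transcript, which runs from 43121540 to 43175719 in 8 exons. The 250 bases before that start, at chr5:43121211-43121460 on the plus strand, are printed 5′ to 3′ with every GCC and GGC in capitals. These are the 2 outer triplets of the AP-2 motif.
ZNF131 promoter: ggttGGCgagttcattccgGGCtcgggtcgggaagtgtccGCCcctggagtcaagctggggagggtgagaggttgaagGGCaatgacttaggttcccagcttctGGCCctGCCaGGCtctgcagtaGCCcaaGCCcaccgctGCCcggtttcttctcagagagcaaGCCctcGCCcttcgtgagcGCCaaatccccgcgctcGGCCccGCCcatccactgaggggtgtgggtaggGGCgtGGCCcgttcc
This stretch had a GC content of 66.0%, against 42.5% for the longest transcript. It held 12 GCC and 8 GGC triplets, on this strand and with overlaps counted. The palindromic motifs GCCNNNGGC and GCCNNNNGGC, whose matches read the same on both strands, were searched in the window from 250 bases before to 50 bases after the start. The window had 0 matches of either, as did the window of the other start that RefSeq gives the gene, at 43121565. Of 35116 RefSeq promoter windows of the same length, 23.2% held GCCNNNGGC, 21.4% held GCCNNNNGGC and 36.7% held at least 1 of them. The absence of a match says only that these letters are not in this window, and no binding was measured here. Among tested genes, 27.9% of the 3821 with GCCNNNGGC in a window were called lower with WT than with GFP, and 31.1% of the 6128 without it. Called higher were 34% and 30% (adjusted p under 0.05 in the test given below). Of all tested genes 27.1% were called lower and 27.7% higher. The 2 sets were not matched for GC content, and the difference between them was not tested.

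ZNF131 mRNA was lowest in the cells with unaltered TFAP2β, at 54.6% of its mean in GFP cells. In the cells with the deleted disordered region it stood at 97.5% of the GFP mean, and with the mutated region at 84.8%. Read counts were 815, 766 and 991 in the GFP libraries, 423, 428 and 581 with WT, 613, 700 and 932 with Mut_IDR3, and 872, 883 and 985 with dIDR3. The 3 WT libraries had the fewest reads of all 12.

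Levels were then compared as CPM, counts scaled to the size of each library with factors from the trimmed mean of M-values (TMM). The GFP libraries had 23.6, 23.8 and 22.9 CPM, a mean of 23.4 ± 0.464 (SD, n = 3). The WT libraries had 11.7, 12.7 and 14.0 CPM, a mean of 12.8 ± 1.19 (SD, n = 3). Every WT library was below each of the other 9 libraries. Taken by pairs of groups, such a gap was common. All WT libraries were below all GFP libraries for 29.9% of tested genes, below all Mut_IDR3 libraries for 26.7% and below all dIDR3 libraries for 28.9%. The share of genes with WT below all 9 at once is not given here. The Mut_IDR3 libraries had 19.7, 18.3 and 21.6 CPM, a mean of 19.9 ± 1.69 (SD, n = 3). The dIDR3 libraries had 21.8, 22.9 and 23.8 CPM, a mean of 22.8 ± 1.04 (SD, n = 3). The dIDR3 libraries lay within and around the GFP range, while the 3 Mut_IDR3 libraries lay below all GFP libraries and, by a small margin, below all dIDR3 libraries. Mut_IDR3 libraries lay below all GFP libraries for 21% of tested genes and below all dIDR3 libraries for 17.7%. In bulk RNA of this kind, fewer cells with the mRNA and less mRNA per cell cannot be told apart.

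**Figure D1:**
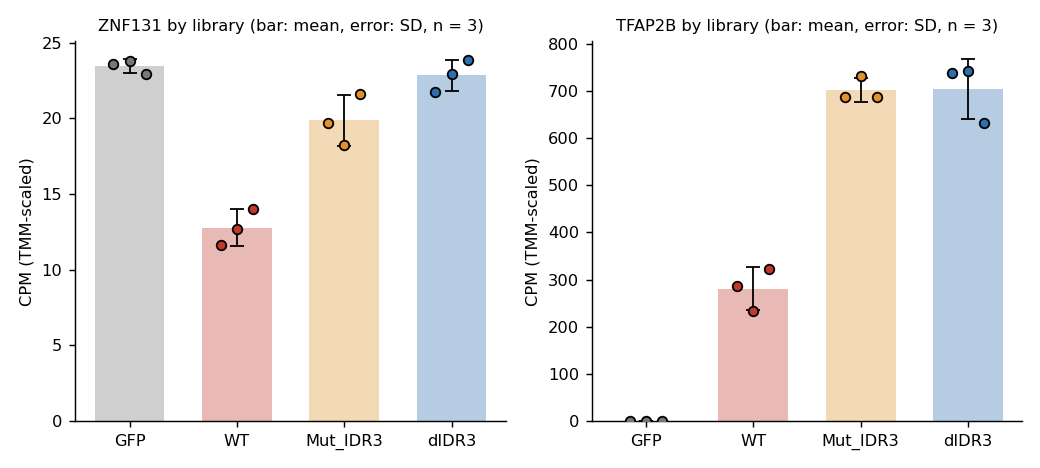
Level of ZNF131 (left) and TFAP2B (right) in CPM for the 3 libraries of each group, with points for libraries, bars for means and error bars for SDs. ZNF131 is lowest in the 3 WT libraries (11.7 to 14.0 CPM), where TFAP2B stands at 232 to 323 CPM, below both mutants.

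The gap between WT and the other groups was larger than the spread within any group, while the gap between dIDR3 and GFP was smaller than the SD of dIDR3. The coefficient of variation was 1.98% for GFP, 9.34% for WT, 8.52% for Mut_IDR3 and 4.55% for dIDR3. Counting error alone would give 3.43%, 4.61%, 3.70% and 3.31%. The spread of the GFP libraries was thus below counting error, and that of the other 3 groups above it, least so for dIDR3. With 3 libraries per group these spreads are rough, and their excess over counting error was not tested. Per kilobase of the longest transcript, ZNF131 stood at 7.01 CPM per kb in GFP cells, close to the median gene at 6.59. It was above 51.5% of 12724 genes there and above 39.3% of them with WT.

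In the model fitted across all genes (edgeR's quasi-likelihood test with Benjamini-Hochberg adjustment), ZNF131 was lower with WT than with GFP by a log2 fold change of -0.87 (SE 0.09, 95% interval -1.07 to -0.68, adjusted p = 1.47e-06). This is 1.83-fold lower. A gene was called at an adjusted p under 0.05. By that rule 27.1% of all tested genes were lower with WT and 54.9% were called in either direction. A call by itself was therefore common. Libraries of the 2 groups did not overlap, with WT lower, for 29.9% of genes. By size, 12.6% of tested genes had a lower fold change, and 19.8% a larger change in either direction.

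ZNF131 was higher in each mutant than with WT. The log2 fold change was 0.64 for Mut_IDR3 (SE 0.09, 95% interval 0.44 to 0.83, edgeR adjusted p = 5.8e-05), which is 1.55-fold. It was 0.84 for dIDR3 (SE 0.09, 95% interval 0.64 to 1.03, edgeR adjusted p = 2.53e-06), which is 1.79-fold. With Mut_IDR3 23.2% of genes were called higher than with WT, and with dIDR3 27.2%, while 26.7% and 28.9% had libraries that did not overlap in that direction. The mean of both mutants exceeded WT by 0.74 (SE 0.08, edgeR adjusted p = 2.59e-06), where 27.6% of genes were called higher. These comparisons share the WT libraries with the one against GFP, so the fall and the return are not independent of each other.

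Against GFP, the mutants left ZNF131 at or slightly under the control. The log2 fold change was -0.04 for dIDR3 (SE 0.09, 95% interval -0.23 to 0.15, edgeR adjusted p = 0.801), where 29% of genes were called and 13.4% were called lower. For Mut_IDR3 it was -0.24 (SE 0.09, 95% interval -0.43 to -0.05, edgeR adjusted p = 0.0733), which did not pass, with 21.1% of genes called. The 3 Mut_IDR3 libraries were all below the 3 GFP libraries, as they were for 21% of genes, and 9.85% of genes were called lower. The Mut_IDR3 call depended on the samples fitted: with the GFP and Mut_IDR3 libraries alone, the change of -0.25 passed with an edgeR adjusted p of 0.0398.

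The 2 mutants were also set against each other. Mut_IDR3 was lower than dIDR3 by a log2 fold change of -0.20 (SE 0.09, 95% interval -0.39 to -0.01, edgeR adjusted p = 0.17), in a comparison where 10.8% of genes were called. The libraries did not overlap, which held in this direction for 17.7% of genes. In the order of the levels, WT differed from its neighbour Mut_IDR3, while Mut_IDR3 and dIDR3, and dIDR3 and GFP, did not differ past the threshold. As a share of the WT change on the log2 scale, the Mut_IDR3 change was 27.2% and the dIDR3 change 4.17%.

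An exact permutation test on the gene alone, over all 15400 ways to split 12 libraries into 4 groups of 3, gave p = 0.000519, with 95.1% of the variance in log2 CPM between groups. Neither value is given for other genes, of which 54.9% were called with WT against GFP. The test takes the libraries as separate units, and the labels do not say whether they were separate cultures. A test of 3 against 3 libraries cannot go below an exact p of 0.1, so single pairs of groups were tested only in the model across genes. The call lower with WT, higher in both mutants than with WT, and not called in either mutant against GFP was shared by 1466 tested genes, or 9.91%. Adding that the mutants did not differ from each other, 1392 genes (9.41%) had the same 6 calls as ZNF131.

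Genes with transcripts of the same GC content as ZNF131 also fell with WT. The 634 other genes in its GC bin, with 42.0% to 43.1%, had a median log2 fold change of -0.28 with WT against GFP, against -0.01 for all tested genes, and 50.2% of them were called lower. In that bin 15.3% of genes fell further than ZNF131. The offset of the bin in log2 units was 0.11, 0.13 and 0.15 in the GFP libraries and -0.24, -0.09 and -0.23 with WT. It was 0.01, -0.03 and 0.02 with Mut_IDR3 and 0.03, 0.05 and 0.07 with dIDR3, so the bin ranked WT lowest, as ZNF131 does.

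After the GC trend was taken out of each library, ZNF131 was still called lower with WT than with GFP, at -0.56 (SE 0.09, edgeR adjusted p = 0.000102). It was still called higher than with WT in Mut_IDR3, at 0.45 (edgeR adjusted p = 0.000819), and in dIDR3, at 0.60 (edgeR adjusted p = 4.63e-05). Calls stayed common in this setting. Of the 14792 tested genes, 7086 were called in either direction with WT against GFP, 6054 in Mut_IDR3 against WT and 7232 in dIDR3 against WT. The changes against GFP became -0.11 for Mut_IDR3 (edgeR adjusted p = 0.436) and 0.04 for dIDR3 (edgeR adjusted p = 0.729), neither of them called. Whether GC content affected the measurement or the genes of low GC share a change in the cells cannot be told apart here.

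**Figure D2:**
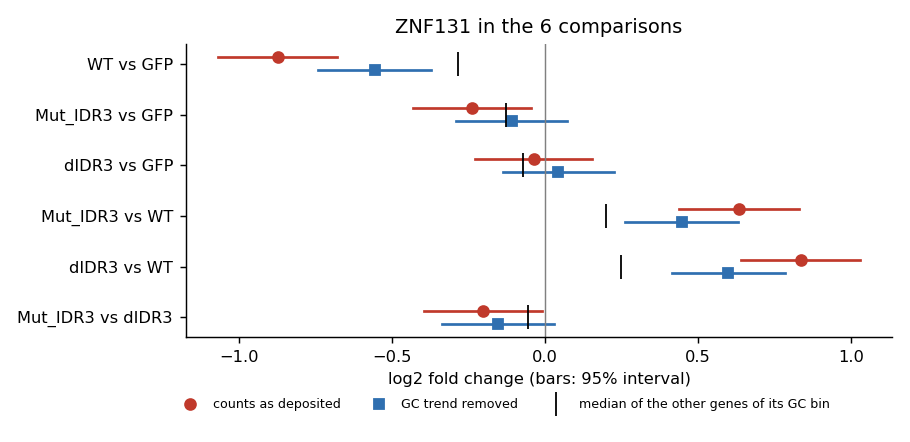
Log2 fold change of ZNF131 in the 6 comparisons, from the counts as deposited (red) and with the GC trend removed (blue), with 95% intervals; black ticks mark the median of the 634 other genes in its GC bin. The change with WT against GFP is -0.87 as deposited and -0.56 with the trend removed, and the bin median is -0.28.

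The level of the construct mRNA differed between the groups. TFAP2B, whose reads can come from the construct or from the chromosomal gene, had 0, 0.279 and 0.0924 CPM in the GFP libraries. With WT it had 285, 232 and 323 CPM, with Mut_IDR3 687, 732 and 687, and with dIDR3 739, 742 and 632. The mutant libraries thus had more TFAP2B mRNA than the WT libraries, by a log2 fold change of 1.32 for Mut_IDR3 (SE 0.12, edgeR adjusted p = 5.11e-07) and 1.33 for dIDR3 (SE 0.12, edgeR adjusted p = 3.07e-07). ZNF131 was lowest in the group with the lower of the construct levels. Protein was not measured here, and the part of construct level in the ZNF131 result was not tested.

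The related factors of the family were counted as well. TFAP2A, which binds the same motif and is expressed in squamous epithelium, was higher with WT at 126, 132 and 125 CPM than in any library of the other groups (50.3 to 61.2 CPM). Such a rise without overlap held for 29.5% of genes with WT against GFP, and a fall without overlap against WT for 24.1% in Mut_IDR3 and 26.7% in dIDR3. Its log2 fold change against GFP was 1.09 (SE 0.06, edgeR adjusted p = 4.51e-09), and it was -1.24 and -1.28 in Mut_IDR3 and dIDR3 against WT. TFAP2C rose with WT by 0.48 (SE 0.09, edgeR adjusted p = 0.000332) and was lower than with WT in Mut_IDR3 (-0.33) and dIDR3 (-0.28). Without the GC trend its rise was 0.28 and still called, and the calls against WT were lost (-0.22 and -0.16), while TFAP2A kept its calls. TFAP2E was at or below a mean of 0.91 CPM in every group. It was called lower in dIDR3 than in GFP (-1.48, edgeR adjusted p = 0.035), a call lost under 5 alternatives of the processing. Without the GC trend it was also called lower with WT than with GFP (-1.31, edgeR adjusted p = 0.0355). TFAP2D, with 2 counts in total, was not tested. The fall of ZNF131 therefore stood beside a rise of TFAP2A and TFAP2C in the same libraries, and their part in it was not tested.

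ZNF131 was next placed among genes of its own kind. Of 367 other tested genes named ZNF with a number, most of them C2H2 zinc-finger genes, 151 were lower with WT than with GFP, 59 were higher and 157 were not called. Their median log2 fold change was -0.27, against -0.01 for all tested genes, of which 27.7% were called higher and 27.1% lower. 83 of the 367 fell further than ZNF131. In Mut_IDR3 against WT 99 of them were higher and 46 lower, and in dIDR3 against WT 122 and 57. Of all genes 23.2% were called higher and 20.9% lower in Mut_IDR3 than with WT. In dIDR3 against WT the shares were 27.2% higher and 25% lower. The pattern of ZNF131, lower with WT and higher in both mutants, was found in 79 of the 367 (21.5%), against 2538 of all tested genes (17.2%). Without the GC trend, 105 of the ZNF genes were called lower with WT and 52 higher, the median was -0.15 and 78 fell further than ZNF131. In that setting 7086 of all 14792 tested genes were called in either direction, and the median of all genes was -0.02. The all-gene shares called lower and higher in that setting are not given here, so no excess among ZNF genes is read from these counts.

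The BTB zinc-finger genes share both domains with ZNF131. Of 46 tested, 14 rose with WT, 14 fell and 18 were not called, with a median of -0.05, and these counts were near the shares of all genes (27.7% higher, 27.1% lower). The difference between the 2 families was not tested. ZNF131 lay near the low end of this family. ZBTB26 (-0.98), ZBTB8A (-0.95), ZBTB1 (-0.94) and ZBTB11 (-0.90) were called and had lower fold changes, and ZBTB7C was lower still but had a mean of 0.23 CPM in GFP cells and was not called. In dIDR3 against WT, ZBTB24 (1.05) and ZBTB7C (1.95, not called) were the members with a higher fold change than ZNF131, and in Mut_IDR3 against WT ZBTB7C was (1.44, not called).

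**Figure D3:**
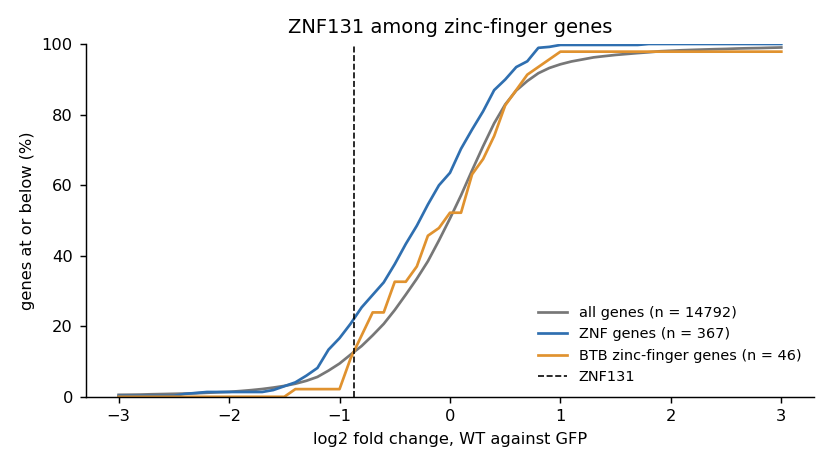
Cumulative share of genes (%) at or below each log2 fold change with WT against GFP, for all 14792 tested genes, 367 ZNF genes and 46 BTB zinc-finger genes; the dashed line marks ZNF131 at -0.87. The ZNF curve lies to the left, with a median of -0.27 against -0.01 for all genes.

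The HAUS complex was taken up because HAUS5 is a described target of ZNF131. All 8 subunit genes were tested, and with WT against GFP 3 fell, 1 rose and 4 were not called, with a median of -0.16 against -0.01 for all genes. Of all tested genes 27.1% were called lower and 27.7% higher, so 3 of 8 is not far from the background. HAUS5 itself did not fall with ZNF131. It had 25.1, 22.2 and 20.6 CPM in the GFP libraries, 26.6, 25.4 and 29.2 with WT, 26.3, 27.8 and 25.6 with Mut_IDR3, and 27.1, 30.1 and 26.0 with dIDR3. The 3 GFP libraries were the lowest of all, and the other groups overlapped one another. GFP was lowest without overlap for 29.5% of genes against WT, 22.5% against Mut_IDR3 and 24% against dIDR3. HAUS5 was called higher with WT than with GFP, at 0.26 (SE 0.09, edgeR adjusted p = 0.0259). That call was lost without GFP replicate 2, GFP replicate 3 or WT replicate 3 (0.20 to 0.25), with library size alone as the scale (0.17) and in the fit of GFP and WT only (0.26), and the change was 0.01 with the GC trend removed. HAUS5 was also called higher in dIDR3 than in GFP (0.30, edgeR adjusted p = 0.0256), a call lost without GFP replicate 2, GFP replicate 3, dIDR3 replicate 1 or dIDR3 replicate 2 (0.21 to 0.29). Against WT it was -0.03 for Mut_IDR3 and 0.04 for dIDR3, neither of them called, but without the GC trend the dIDR3 change was 0.21 and was called (edgeR adjusted p = 0.0429).

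HAUS6, HAUS1 and HAUS3 were the subunits called lower with WT, and HAUS1 shared all 6 calls with ZNF131. HAUS6 had 39.3, 36.9 and 40.9 CPM in the GFP libraries, 14.1, 16.4 and 22.0 with WT, 29.8, 24.7 and 28.9 with Mut_IDR3, and 27.1, 32.7 and 33.1 with dIDR3. With WT it fell by 1.15 on the log2 scale (SE 0.14, edgeR adjusted p = 4.66e-06), further than ZNF131, and it rose against WT by 0.66 in Mut_IDR3 and 0.82 in dIDR3. Unlike ZNF131, HAUS6 was called lower in Mut_IDR3 than in GFP (-0.49, edgeR adjusted p = 0.0183), a call lost without GFP replicate 3 or Mut_IDR3 replicate 2 (-0.46 and -0.41) and without the GC trend (-0.21). ZNF131 stood at -0.24 in that comparison, and whether the 2 genes differ was not tested. HAUS1 fell by 0.72 with WT and rose by 0.64 and 0.74 in the mutants. HAUS3 fell by 0.79, was not called in Mut_IDR3 against WT (0.54, edgeR adjusted p = 0.0804), and was higher in dIDR3 than with WT by 0.77, a call lost without WT replicate 2 (0.55, edgeR adjusted p = 0.054). Without the GC trend, HAUS6 (-0.51) and HAUS1 (-0.34) were still called lower with WT, while HAUS3 was not (-0.13), and HAUS4 was then called lower (-0.26).

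Of the 4 genes listed as partners of the complex, 2 rose with WT, 1 fell and 1 was not called, against 27.7% and 27.1% of all genes called higher and lower. NEDD1, the adaptor between HAUS and the γ-tubulin ring, was lower with WT (-0.65, SE 0.12, edgeR adjusted p = 0.000313) and also against GFP in Mut_IDR3 (-0.44) and dIDR3 (-0.50). The Mut_IDR3 call was lost without GFP replicate 3 (-0.43), Mut_IDR3 replicate 2 (-0.37) or Mut_IDR3 replicate 3 (-0.43). TUBG1, the gene of γ-tubulin, rose by 0.53 with WT (SE 0.06, edgeR adjusted p = 6.06e-06). It was also called higher against GFP in Mut_IDR3 (0.38) and dIDR3 (0.29). TUBGCP3, a subunit of the ring, rose by 0.23 with WT (0.14 and not called with library size alone as the scale), and TUBGCP2 was not called at 0.09. Removing the GC trend changed most of these values. NEDD1 was then at -0.01 and not called with WT against GFP, and was called lower in dIDR3 than with WT (-0.30, edgeR adjusted p = 0.00682, against 0.15 and not called before). TUBG1 was against GFP at 0.18 with WT, 0.23 in Mut_IDR3 and 0.19 in dIDR3, all still called. TUBGCP2 turned to -0.22 and was called lower with WT (edgeR adjusted p = 0.00336).

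ZBTB33, the gene of the partner Kaiso, fell in the same libraries. It had 28.7, 29.6 and 34.6 CPM in the GFP libraries, 14.5, 18.0 and 19.7 with WT, 25.5, 19.4 and 19.8 with Mut_IDR3, and 21.9, 22.1 and 27.5 with dIDR3. Its log2 fold change with WT against GFP was -0.83 (SE 0.14, edgeR adjusted p = 0.000103), near that of ZNF131. Unlike ZNF131, it was also called lower in Mut_IDR3 against GFP (-0.52, edgeR adjusted p = 0.014) and in dIDR3 against GFP (-0.38, edgeR adjusted p = 0.047). The first call was lost without GFP replicate 3, Mut_IDR3 replicate 2 or Mut_IDR3 replicate 3 (-0.47 to -0.44), and the second without any 1 of the GFP libraries, Mut_IDR3 replicates 2 and 3 or dIDR3 replicates 1 and 2 (-0.44 to -0.31). Against WT, ZBTB33 was called higher in dIDR3 (0.45, edgeR adjusted p = 0.0118), as were 27.2% of genes, and not called in Mut_IDR3 (0.31). The dIDR3 call was lost without the GC trend (-0.01, with Mut_IDR3 at -0.06). In fits that kept the trend it was lost under 3 alternatives of the processing (0.31 to 0.45). Whether ZNF131 and ZBTB33 differ in their response was not tested. The fall of ZBTB33 with WT was -0.19 once the GC trend was removed and was not called. Its changes in the mutants against GFP were then -0.25 for Mut_IDR3 and -0.19 for dIDR3, and neither was called.

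Of the other members of the Kaiso family, ZBTB38 was lower with WT (-0.59), and ZBTB4 was higher (0.30), and neither was called with the GC trend removed. CTNND1, the gene of the p120 catenin that binds Kaiso, was not called at -0.08. In the family 2 of 4 fell with WT, 1 rose and 1 was not called, with a median of -0.34, where 27.1% of all genes were called lower and 27.7% higher. In each mutant against GFP, 2 of the 4 were called lower and 0 higher. Of all genes 9.85% were called lower than GFP in Mut_IDR3 and 13.4% in dIDR3. Beside ZBTB33, these calls were ZBTB38 in Mut_IDR3 (-0.62) and CTNND1 in dIDR3 (-0.26). Both were still called without the GC trend (-0.46 and -0.26).

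**Figure D4:**
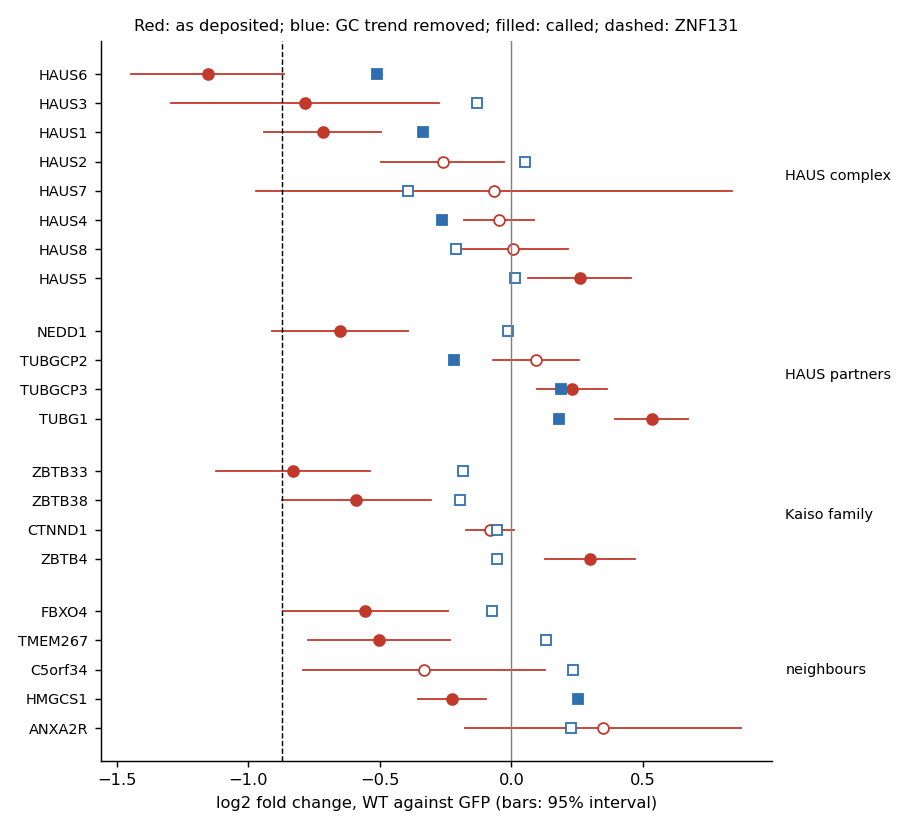
Log2 fold change with WT against GFP, with 95% intervals, for the HAUS subunits, their partners, the Kaiso family and 5 neighbours of ZNF131 on chromosome 5 (CCL28, with a wide interval, is left out); red is as deposited, blue with the GC trend removed, and filled symbols are called. ZBTB33, HAUS3 and HAUS1 lie nearest the dashed line at -0.87 for ZNF131, and HAUS5 lies on the other side of 0.

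Genes of the oestrogen response were read because ZNF131 has been described as a repressor of oestrogen receptor signalling. The receptor gene ESR1 had a mean of 0.41 CPM in GFP cells and was not called with WT (0.17), and PGR, TFF1, IGFBP4, CA12 and KRT19, classical targets, had too few counts to test. Of the 11 genes tested, 7 rose with WT, 0 fell and 4 were not called, with a median of 0.54 against -0.01 for all genes, of which 27.7% were called higher and 27.1% lower. The risers were AREG, the amphiregulin gene (1.83), XBP1, a regulator of the unfolded protein response (1.79), the growth regulator MYC (0.85), SIAH2 (0.72), CTSD (0.57), RARA (0.54) and CCND1 (0.35). Beside ESR1, those not called were GREB1 (0.42), ESR2 (-0.30) and PDZK1 (-1.13), with means of 2.82, 0.57 and 0.46 CPM in GFP cells. In the mutants against GFP, 2 of the 11 were called higher in Mut_IDR3 and 3 in dIDR3, among them CCND1 in dIDR3 (0.44). In both, 0 were called lower. Of all genes 21.1% and 29% were called in these comparisons in either direction. Against WT, 7 of the 11 were lower in Mut_IDR3 and 6 in dIDR3, with 0 higher in either, where 20.9% and 25% of all genes were called lower. These counts from edgeR were the same at an unadjusted p under 0.05 and with DESeq2 and limma-voom. Receptor activity was not measured, and its part in these changes was not tested. Without the GC trend 6 of the 11 were called higher with WT, with a median of 0.21. SIAH2 was then at 0.43, CTSD at 0.24 and CCND1 at 0.15, and RARA, at 0.21, was the call that was lost. In dIDR3 against WT 5 were then lower and 1, CCND1, was higher (0.21, edgeR adjusted p = 0.000327).

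The neighbours of ZNF131 on chromosome 5 were read for changes of the region as a whole. Of the 5 annotated protein-coding genes on each side, 6 had enough counts to test. With WT against GFP 3 of the 6 were lower, 0 higher and 3 not called, with a median of -0.28, where 27.1% of all genes were called lower, and the same counts at an unadjusted p under 0.05 in edgeR, with DESeq2 and with limma-voom. The 3 were FBXO4 (-0.56), the gene of an F-box protein, TMEM267 (-0.50) and HMGCS1 (-0.22), the gene of an enzyme of cholesterol synthesis. None of the 6 fell as far as ZNF131. ANXA2R, the nearest tested neighbour, went the other way: it was at 0.35 with WT and not called, and was lower than with WT in Mut_IDR3 (-0.72, edgeR adjusted p = 0.0291) and dIDR3 (-1.01, edgeR adjusted p = 0.00335), also without the GC trend. Its Mut_IDR3 call was lost without WT replicate 1, Mut_IDR3 replicate 2 or Mut_IDR3 replicate 3 (-0.74 to -0.62). After removal of the GC trend FBXO4 (-0.08) and TMEM267 (0.13) were not called and HMGCS1 was called higher (0.25). NIM1K, which begins 49 bases past the end of ZNF131 on the same strand, had too few counts to test.

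Genes with the profile nearest to that of ZNF131 were sought in 10006 genes with an established symbol whose mean level reached 5 CPM. The measure was the root mean square difference in log2 CPM over the 12 libraries, each gene centred on its mean. The 10 nearest were HIPK3, a kinase gene, CEP55, of abscission at the end of mitosis, MTR, the methionine synthase gene, USP33, a deubiquitinase gene, SUPT16H, of the histone chaperone FACT, ZC3H14, of a poly(A)-binding protein, CEP95, PHF20L1, CARNMT1, and CDC27, of the anaphase-promoting complex. Their distances ran from 0.056 to 0.0726 log2 units, where the median gene had 0.397. Pearson's r with ZNF131 ran from 0.979 to 0.989, over 12 libraries that share 4 groups, scaling and GC trend, and 1066 genes had an r over 0.9.

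Since these genes were picked for their likeness, their values are a description. With WT against GFP they stood at -0.92 to -0.81, and all 10 were called higher in both mutants than with WT. Of all tested genes 23.2% were called higher than with WT in Mut_IDR3 and 27.2% in dIDR3. In Mut_IDR3 against GFP 5 of the 10 were called, and in dIDR3 against GFP 0, also at an unadjusted p under 0.05 in edgeR, with DESeq2 and with limma-voom. Of all tested genes 21.1% and 29% were called in these comparisons. The choice by likeness over the same libraries largely sets these counts, so they are not a separate result. Their transcripts had a GC content of 33.3% to 45.0%. Without the GC trend 9 of the 10 were still called lower with WT, at -0.78 to -0.22, and PHF20L1 (-0.22) was not. The names depend on the measure. Ranked by Pearson's r instead, 1 of the 10 was again among the first 10, while median-ratio scaling gave the same 10.

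Genes with the opposite profile were ranked by Pearson's r, among those whose SD of log2 CPM was at least that of ZNF131. They were led by ATF3, a stress-response transcription factor gene, with an r of -0.979 and a log2 fold change of 1.82 with WT against GFP. After it came CST3 (1.00), SLC2A3, a glucose transporter gene (1.86), the histone gene HIST1H2BJ (1.57) and GRB10 (3.14).

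**Figure D5:**
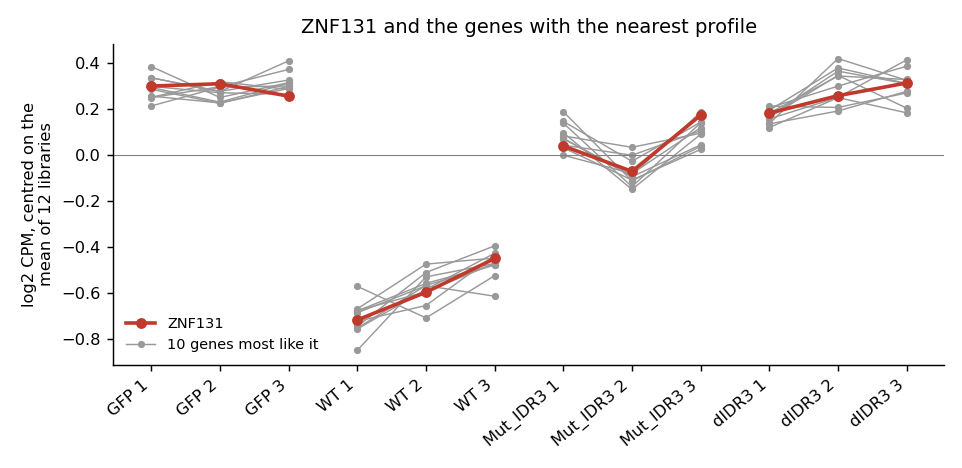
Log2 CPM of ZNF131 (red) and of the 10 genes nearest to it (grey) in the 12 libraries, each gene centred on its own mean. Lines join libraries only to guide the eye, and all 11 genes are lowest in the 3 WT libraries.

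Facts of the libraries bear on all of this. They held 30.7 M to 43.5 M counts each. Of the squamous markers, KRT5 stood at 2668 to 3709 CPM and TP63 at 123 to 167 CPM, while KRT14 ranged from 45.2 to 865 CPM, KRT17 from 427 to 2565 CPM and SOX2 from 0.0592 to 8.63 CPM. The leukocyte marker PTPRC and the endothelial marker PECAM1 had 0 counts in all 12 libraries. The 6 fibroblast markers summed to 2.61 to 3.68 CPM in GFP libraries and to 5.34 to 6.56 with WT, nearly all of it COL1A1, and the 7 leukocyte and endothelial markers to 70.3 to 75.5 and 82.1 to 104, nearly all of it CD68, which other cells also express. In Mut_IDR3 and dIDR3 the first sum was 3.75 to 4.47 and 4.27 to 5.35 CPM, and the second 51.3 to 57.4 and 49.9 to 51.5 CPM. The 8 squamous markers summed to 5365 to 5585 CPM in GFP libraries to 6647 to 7816 with WT, to 5379 to 5525 with Mut_IDR3 and to 4609 to 4853 with dIDR3. The part of these shifts in the ZNF131 result was not tested.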

How the data were processed

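RNA of KYSE150 cells was sequenced in 12 libraries, 3 for each of 4 constructs. The authors deposited 1 table of raw counts per gene, 24302 features by 12 libraries. The submitters' processing notes name Trim Galore, HISAT2, StringTie and the build GRCh38/hg38, all without versions. The program that counted reads, its annotation and its strand setting are not given in the sources used here. All 19974 Ensembl identifiers matched GENCODE release 29, and 4328 features called NewGene were tested but not named.

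ZNF131, the gene lists and the rules for naming genes were chosen with earlier results of these data known. Every list member is named or counted, and the nearest profiles follow the rule given beside them. Features were kept by filterByExpr by group (14792 of them), given TMM factors, and compared by the quasi-likelihood F test of edgeR 4.0.16 in R 4.3.3. All 12 libraries entered 1 fit (8 residual degrees of freedom), and p-values were adjusted by Benjamini-Hochberg over all genes. Log2 CPM used a prior count of 2. GC trends were removed with offsets over 20 bins of the GC content of each gene's longest transcript. The code was tested on simulated counts. The depth was 30.7 M to 43.5 M counts per library. Alternatives were other scalings and filters, DESeq2 1.42.0, voom in limma 3.58.1, fits of single pairs of groups, a replicate block, no mitochondrially encoded genes, single libraries left out and an adjusted p under 0.01.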

Additional observations from a re-analysis of the deposited data

How the results depend on the processing

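Under all 25 alternatives for each comparison, ZNF131 stayed called lower with WT than with GFP (-0.96 to -0.56, highest adjusted p 0.000191). It stayed called higher than with WT in Mut_IDR3 (0.45 to 0.71, highest adjusted p 0.00128), in dIDR3 (0.60 to 0.91, highest adjusted p 0.000143) and in the mean of both (0.52 to 0.81). Single libraries left out gave -0.94 to -0.81 for WT against GFP. The change in Mut_IDR3 against GFP ran from -0.30 to -0.11 and was called with only the 2 groups fitted (-0.25, adjusted p 0.0398). The change in dIDR3 against GFP was 0.045 with the GC trend removed and 0.043 with the replicate block as well, and was not called under any alternative. The cause was not tested.

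Labels give groups the same replicate numbers. Of 18 same-numbered pairs of libraries, 4 correlated over 0.1 in their deviations from the group means (-0.32 to 0.32), so the numbers were not taken to pair the libraries. With the replicate block ZNF131 changed by -0.88 with WT against GFP and no call on it changed.

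Counts of all genes called moved more. For Mut_IDR3 against GFP 3114 became 1940 with the GC trend removed and a replicate block, 1349 at an adjusted p under 0.01 and 1566 to 3796 with 1 library left out, with 1566 without Mut_IDR3 replicate 2 and 1701 without GFP replicate 3. For dIDR3 against GFP 4294 became 2506 at an adjusted p under 0.01. For Mut_IDR3 against dIDR3 1594 became 596 at that threshold and 819 to 2265 with 1 library left out. That count was 819 to 948 without any 1 Mut_IDR3 library or without dIDR3 replicate 2 or 3.

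Among calls made on the counts as deposited, removing the GC trend, alone and with the block, turned signs for HMGCS1 and TMEM267 with WT against GFP (0.25 and 0.25, 0.13 and 0.13) and in dIDR3 against WT (-0.036 and -0.036, -0.11 and -0.10). They also turned for TUBG1 (0.0076 and 0.0077) and ZBTB33 (-0.0072 and -0.0090) in dIDR3 against WT and for ZBTB4 with WT against GFP (-0.053 and -0.051). Among changes not called before, TUBGCP2 with WT against GFP (0.09 to -0.22) and NEDD1 in dIDR3 against WT (0.15 to -0.30) turned and were then called. At 423 to 991 counts per library, counting error alone limits ZNF131 to about 3% to 5% in each library.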
